A study of Mus musculus with 15 samples.

Results

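The genes described here encode hnRNP proteins, SR proteins and a small group of other sequence-specific splicing regulators, and their RNA levels were followed through a mouse mammary tumour progression series. Members were taken by gene symbol alone: the Hnrnp genes with 1 exception that is not analysed here, the Srsf genes, and Khdrbs1, Khdrbs2, Khdrbs3, Rbfox2, Mbnl1, Ptbp1, Ptbp2, Celf1, Tra2a and Tra2b. This gave 38 of the 18193 genes measured, 18 of them Hnrnp genes and 10 Srsf genes. Each gene was represented by its brightest probe set, the one with the highest mean over all arrays.

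The 15 arrays cover 5 cultured lines with 3 arrays each. NMuMG is a non-tumorigenic epithelial line from mouse mammary gland, wild type and never passaged in mice. E1KD is NMuMG in which hnRNP E1, the product of Pcbp1, was silenced. The M1P line came out of a tumour that E1KD cells had formed in the mammary fat pad (passage 1). L1P came out of the lungs of mice given E1KD, also passage 1. L2P came out of the lungs of mice given L1P, passage 2. The hosts were immunodeficient NOD/SCID mice, per the series' design text. The 4 lines other than NMuMG all carry the silencing, no line carries a control vector, and every line was measured as 1 line, so a difference between lines cannot be told apart from a difference between clones or cultures. Values are log2 signals, so a difference of 1 is a doubling of signal. Errors after ± are standard errors of a difference. A gene is said to have risen or fallen only where limma's moderated test gave a Benjamini-Hochberg adjusted p under 0.05 over all 18193 genes.

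Both families act on pre-mRNA. SR proteins carry RNA recognition motifs and arginine-serine-rich tails; they bind exonic enhancers and usually favour inclusion of an exon. hnRNP proteins coat nascent transcripts and often oppose SR proteins at nearby sites, while RBFOX, MBNL, CELF, PTB and STAR proteins favour or block exons depending on where they bind. Shifts in their amounts are known to change exon choice when epithelial cells take on mesenchymal features, and many of these genes limit their own RNA through exons that lead to nonsense-mediated decay. The arrays prime from the 3' end and measure RNA amount, not exon choice, protein amount or phosphorylation.

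The silencing was visible in every array. Pcbp1, whose product binds C-rich RNA, had log2 signals of 12.76, 12.72 and 12.57 in NMuMG, and 9.36, 8.99 and 9.40 in E1KD. The M1P arrays stood at 9.98, 10.09 and 9.41, L1P at 8.78, 8.01 and 8.69, and L2P at 8.30, 7.95 and 8.21. No array of a silenced line overlapped NMuMG. M1P stood apart in another way: its arrays correlated with each other at only 0.93 to 0.978 over all 45101 probe sets, against at least 0.979 within each other line. M1P array 1 was the highest of all 15 for 44.7% of all genes and the lowest for 18.7%. The SD of members within M1P was 0.47 at the median, against 0.13 to 0.21 in the other lines. M1P results of single members are therefore followed by their value with array 3 as the only M1P array, that is without arrays 1 and 2.

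Across the 5 lines, 12 of the 38 genes (31.6%) differed by limma's F test, near the 31.8% of all genes. They were Khdrbs3, Hnrnpm, Hnrnpab, Hnrnpu, Hnrnph3, Srsf5, Hnrnpa0, Hnrnpul2, Hnrnpll, Srsf11, Hnrnph1 and Mbnl1. Without M1P array 3 the count was 27, where 49% of all genes differed.

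**Figure D1:**
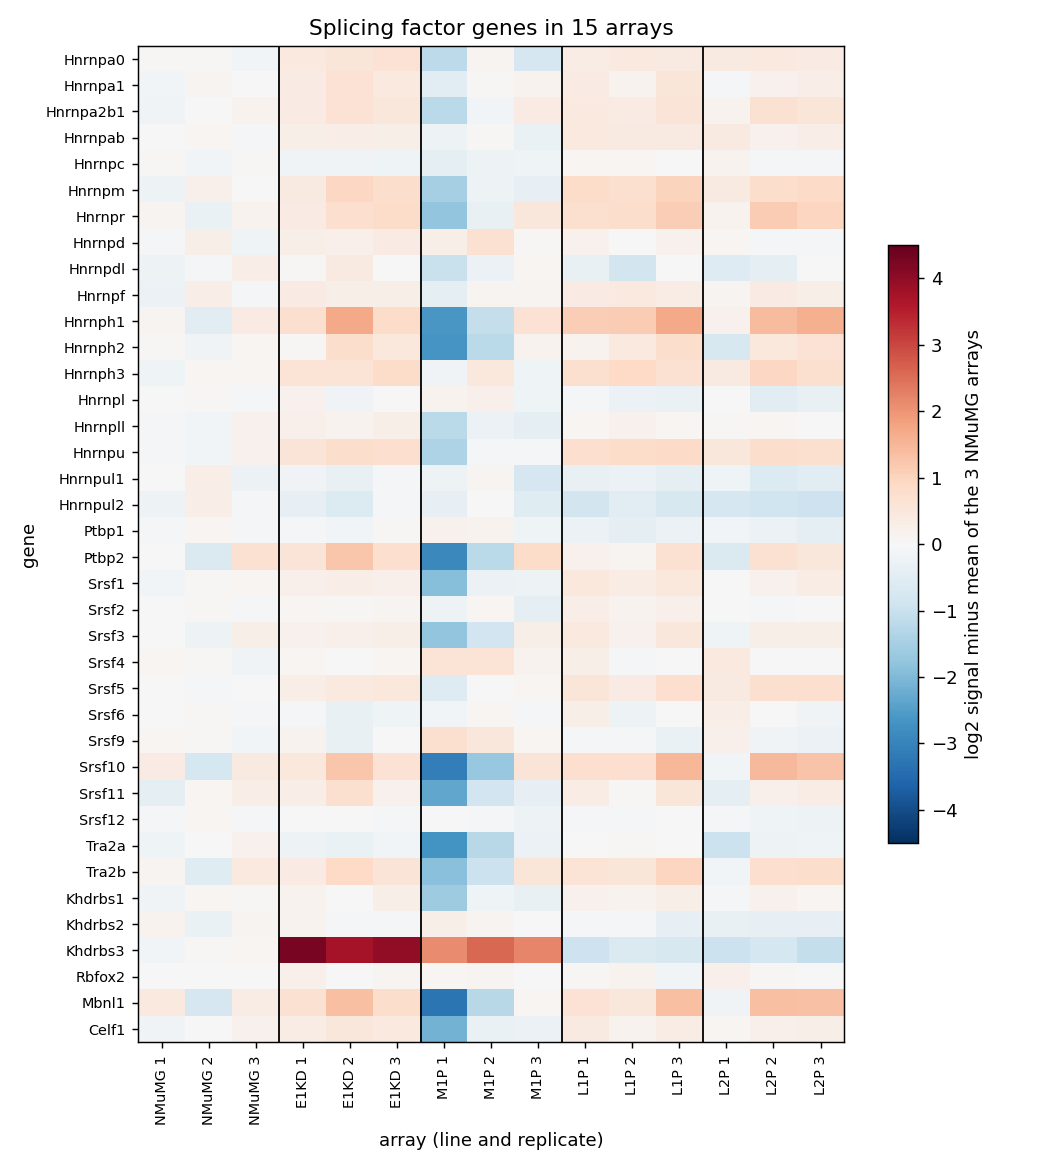
Log2 signal of each of the 38 genes (rows, grouped by family) in each of the 15 arrays (columns), as the difference from the mean of the 3 NMuMG arrays. Khdrbs3 is high in E1KD and M1P and low in both lung lines, and M1P array 1 is the lowest of all arrays for 23 of the 38 genes.

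The largest change in the set belonged to Khdrbs3, which encodes SLM2 (also called T-STAR), a STAR-family RNA-binding protein known mainly from brain and testis. Its log2 signals were 3.46, 3.61 and 3.65 in NMuMG and 7.85, 7.31 and 7.56 in E1KD. All E1KD arrays lay far above all NMuMG arrays, a 16.0-fold rise (log2 difference 4.0 ± 0.16, limma adjusted p = 4.44e-09). M1P gave 5.71, 6.16 and 5.77, below E1KD and above NMuMG with no overlap. Against E1KD, Khdrbs3 fell 3.24-fold in M1P (-1.70 ± 0.16, limma adjusted p = 5.62e-05). With array 3 as the only M1P array the difference was -1.80 and still passed.

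In the lung lines Khdrbs3 was near the bottom of the scale. L1P gave 2.65, 2.94 and 2.85 and L2P 2.61, 2.78 and 2.51, each below every NMuMG array. Against E1KD it fell 27.1-fold in L1P (-4.76 ± 0.16, limma adjusted p = 8.76e-10) and 30.7-fold in L2P (-4.94 ± 0.16, adjusted p = 4.51e-10). L1P also lay below M1P by 8.36-fold (-3.06 ± 0.16, limma adjusted p = 3.94e-07), whereas L1P and L2P overlapped. Leaving out any single array of the lines compared ended none of these Khdrbs3 calls. No detection calls were used, so a signal of this size was not separated from absence of the RNA, and the gene had 1 probe set.

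Its relatives behaved otherwise. Khdrbs1 encodes Sam68, the broadly expressed STAR protein that links signalling to splicing; its signals were 10.35, 10.60 and 10.57 in NMuMG, 10.66, 10.52 and 10.78 in E1KD, 10.70, 10.66 and 10.76 in L1P and 10.47, 10.70 and 10.60 in L2P. These 4 lines lay within a narrow band. M1P gave 8.90, 10.33 and 10.17, and Khdrbs1 fell there against E1KD (-0.85 ± 0.27, limma adjusted p = 0.0377). With array 3 as the only M1P array the difference was -0.48 and did not pass. Khdrbs2, which encodes SLM1, stayed between 3.39 and 4.03 in all 15 arrays and passed no test between lines.

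**Figure D2:**
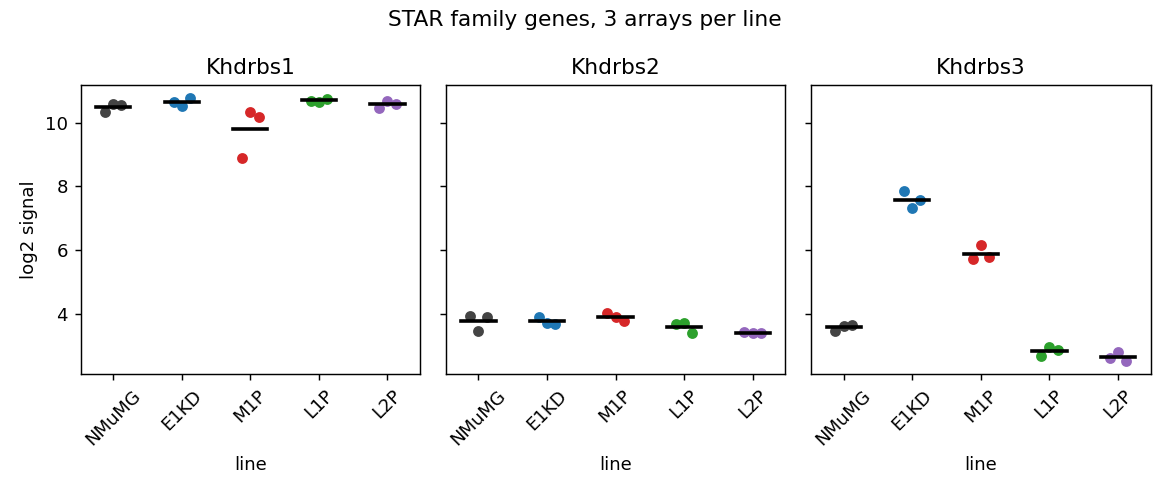
Log2 signal of the STAR family genes Khdrbs1, Khdrbs2 and Khdrbs3 in each line; points are the 3 arrays and bars their mean. Khdrbs3 separates E1KD and M1P from the other lines, while Khdrbs1 has 1 low M1P array at 8.90 and Khdrbs2 stays at or below 4.03; heights are not comparable between genes because probe sets differ.

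E1KD was set against NMuMG to ask which of these genes differ once hnRNP E1 is silenced. Besides Khdrbs3, only Hnrnph3 rose, so 2 of 38 (5.26%) rose against 3% of all genes, and 0 fell against 6.49% of all genes. At an unadjusted p under 0.05 there were 8 members of 38, against 21.3% of all genes. Hnrnph3, an hnRNP F/H relative that binds G-rich RNA, had signals of 6.80, 7.07 and 7.07 in NMuMG and 7.58, 7.61 and 7.81 in E1KD. The groups did not overlap, and it rose 1.61-fold (0.69 ± 0.19, limma adjusted p = 0.0326). This call ended when any single array of the 2 lines was left out, with adjusted p between 0.0660 and 0.133.

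Below the threshold, most members leaned upward. In E1KD 29 of 38 had a higher mean than in NMuMG, with a median log2 difference of 0.28 against -0.07 over all genes, and 15 (39.5%) had all E1KD arrays above all NMuMG arrays, against 13.7% of all genes. Only Srsf6 and Hnrnpc, 5.26% of members, had all E1KD arrays below, against 22.3% of all genes. The Srsf6 direction held for its brightest probe set (-0.20 ± 0.14): the other 3 had all E1KD arrays above NMuMG, with differences of 1.00, 0.75 and 0.91 that did not pass (limma adjusted p over all probe sets 0.0510 to 0.0983). The lean was plain in the hnRNP genes, with 14 of 18 higher and a median of 0.36, and smaller in the Srsf genes, with 7 of 10 higher and a median of 0.16. Genes of the hnRNP A and AB group were all higher, 4 of 4, as were those of the F and H group, 4 of 4. For Hnrnpab, a dimmer probe set with a mean of 10.89 leaned the other way, at -0.42 ± 0.24, without passing. Its remaining probe sets were higher, like the brightest.

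For single members, the standard error pools the spread of all 5 lines, M1P included. The SD of Hnrnpa2b1, for example, was 0.16 in NMuMG, 0.14 in E1KD and 0.8 in M1P. Hnrnpa1, the shuttling hnRNP that silences exons, gave 9.75, 10 and 9.91 in NMuMG and 10.27, 10.53 and 10.31 in E1KD, without overlap (0.48 ± 0.18, limma adjusted p = 0.132). Its relative Hnrnpa2b1 gave 11.07, 11.19 and 11.39, then 11.59, 11.87 and 11.71 (0.51 ± 0.29, adjusted p = 0.362). Both genes passed with only NMuMG and E1KD in the model, and with array weights. Mbnl1, a regulator of developmental exon switches, gave 10.09, 8.90 and 9.99 in NMuMG and 10.36, 11.03 and 10.44 in E1KD (0.95 ± 0.68, adjusted p = 0.475). It did not pass under any alternative. NMuMG array 2 was the low one for Mbnl1, and that array returns below.

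The SR genes described singly did not pass as reported or under any alternative. Srsf1 (ASF/SF2), an SR protein known since the earliest splicing assays, gave 11.91, 12.09 and 12.12 in NMuMG and 12.28, 12.34 and 12.28 in E1KD (0.26 ± 0.33, limma adjusted p = 0.717). Srsf3, the smallest SR protein, gave 11.26, 11.04 and 11.52, then 11.47, 11.51 and 11.54, which overlapped (0.23 ± 0.36, adjusted p = 0.772). Tra2b, an SR-like protein that binds GAA-rich enhancers, gave 11.02, 10.36 and 11.33, then 11.26, 11.80 and 11.50, also overlapping (0.62 ± 0.48, adjusted p = 0.517).

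Ptbp1 and Rbfox2, regulators that often oppose each other's programmes, did not pass. Ptbp1, the polypyrimidine tract binding protein, gave 11.22, 11.35 and 11.23 in NMuMG and 11.19, 11.15 and 11.31 in E1KD (-0.05 ± 0.13, limma adjusted p = 0.873). Rbfox2, which binds GCAUG and is tied to mesenchymal exon choice, gave 8.12, 8.09 and 8.14, then 8.35, 8.09 and 8.25 (0.12 ± 0.11, adjusted p = 0.610). The count of members called in this comparison depended on the model's estimate of spread: 10 rose with only NMuMG and E1KD in the model and 14 with array weights, against 8.29% and 11.3% of all genes rising under those settings, and 0 fell under either.

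**Figure D3:**
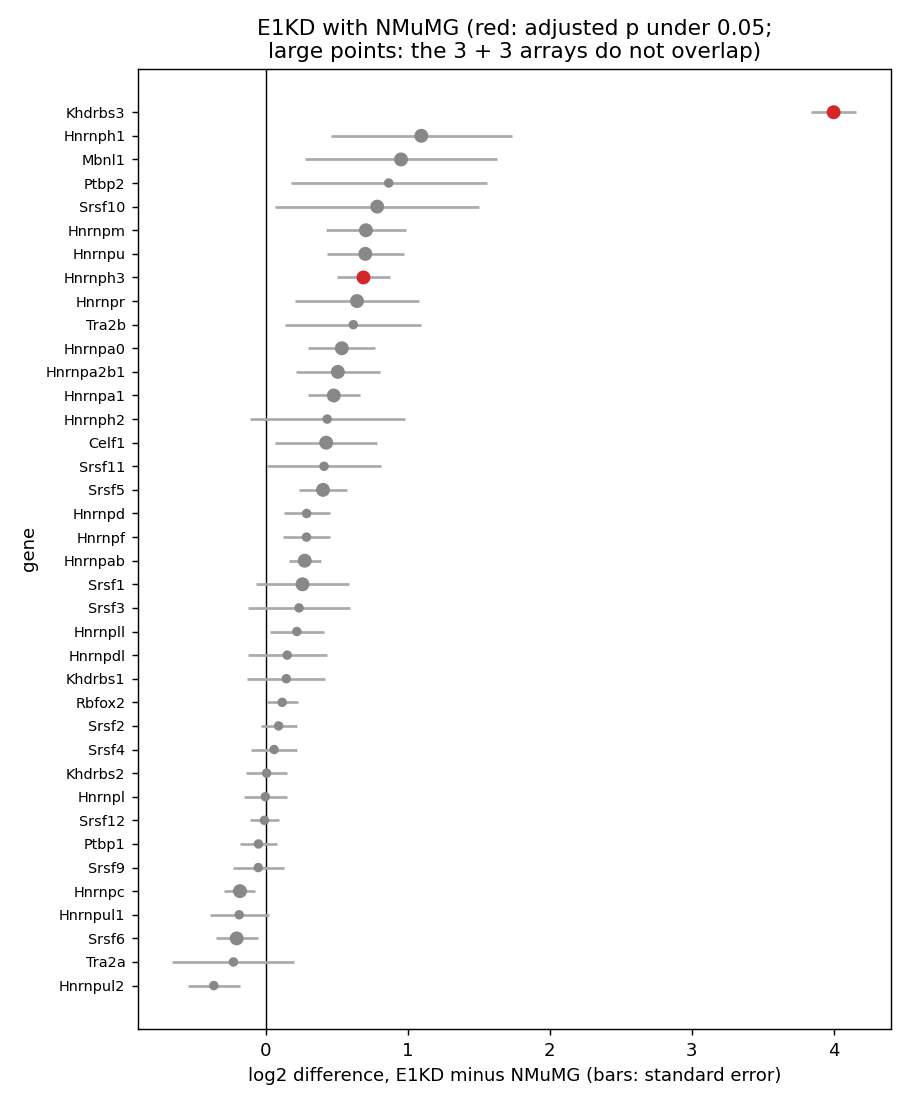
Log2 difference between E1KD and NMuMG for each of the 38 genes, sorted, with the standard error as bars; red points passed the adjusted threshold and large points have arrays that do not overlap. Khdrbs3 lies at 4.0, Hnrnph3 at 0.69, and 29 of 38 genes lie above 0.

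The comparison of M1P with E1KD asks how the tumour-derived line differs from the line that was injected. By limma 18 of 38 members (47.4%) fell with all 3 M1P arrays, against 9.86% of all genes, and 0 rose against 17.7% of all genes. The median difference was -0.73, against 0.20 over all genes, and 30 of 38 were lower. By family, 9 of 18 Hnrnp genes, 4 of 10 Srsf genes, 1 of 2 Tra2 genes, 2 of 3 STAR genes and 2 of the 3 genes Rbfox2, Mbnl1 and Celf1 fell, while neither PTB gene passed.

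These falls were unequal between the arrays. The median difference of members from the E1KD mean was -1.28 in array 1, -0.42 in array 2 and -0.23 in array 3; over all genes the same medians were 0.37, 0.16 and 0.07. Members at least 1 log2 unit below E1KD numbered 21 in array 1, 10 in array 2 and 3 in array 3, where 16.1%, 7.94% and 2.86% of all genes were that low. With array 3 alone against E1KD, 9 members fell and 0 rose, where 2.18% of all genes fell, and 8 of the 9 were among the 18; the lone M1P array is then assumed to vary like the other lines. The 9 were Khdrbs3, Hnrnpa0, Hnrnpm, Hnrnph3, Hnrnpu, Srsf2, Hnrnpab, Hnrnpll and Celf1, named after their values were seen. Leaving out E1KD array 1, 2 or 3 gave 11, 4 and 6 calls, where 17.2%, 6.08% and 13.2% of all genes were called. Leaving out M1P array 1, 2 or 3 gave 8, 15 and 26 calls, where 11.1%, 27.3% and 46.8% of all genes were called, and 2 of the 26 were rises. Hnrnpa0, Hnrnpll, Hnrnpm and Khdrbs3 were called in all 6 of these fits. With only E1KD and M1P in the model, Khdrbs3 alone fell (0.148% of all genes did), and with array weights Khdrbs3 and Hnrnpa0 fell (0.451% of all genes did).

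Many of the larger falls came with wide scatter between the M1P arrays. Mbnl1 gave 6.38, 8.41 and 9.74 in M1P, against at least 10.36 in E1KD, and fell 5.40-fold (-2.43 ± 0.68, limma adjusted p = 0.0236). With array 3 as the only M1P array the difference was -0.87 and did not pass. Srsf10, an SR protein that acts as a repressor when dephosphorylated by heat shock or in mitosis, gave 5.16, 6.57 and 8.84 against 8.76, 9.51 and 8.92 in E1KD, which overlap; it fell 4.61-fold (-2.20 ± 0.72, limma adjusted p = 0.0398), and by array 3 alone the difference was -0.22 and did not pass.

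The hnRNP H genes encode proteins that bind runs of G beside exons. Hnrnph1 gave 7.60, 9.15 and 10.87 in M1P against 10.95, 11.93 and 11.05 in E1KD, and fell 4.29-fold (-2.10 ± 0.64, limma adjusted p = 0.0316). Hnrnph2, its X-linked relative, gave 6.74, 8.20 and 9.58 against 9.47, 10.19 and 9.87, and fell 3.18-fold (-1.67 ± 0.55, adjusted p = 0.0398). Array 3 overlapped E1KD for Hnrnph2 and lay just below it for Hnrnph1; on its own it gave differences of -0.44 for Hnrnph1 and -0.26 for Hnrnph2, neither passing.

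Srsf11 and Tra2b behaved alike in the order of the arrays. Srsf11, an SR-related protein, gave 7.52, 8.98 and 9.49 against 10.17, 10.58 and 10.06 in E1KD, and fell 3.04-fold (-1.60 ± 0.40, limma adjusted p = 0.0158; array 3 alone -0.77, not passing). Tra2b gave 9.01, 9.95 and 11.45 against 11.26, 11.80 and 11.50, and fell 2.61-fold (-1.38 ± 0.48, limma adjusted p = 0.0474; array 3 alone -0.07, not passing). Array 1 was the lowest of the 3 in each of these genes.

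Among the 8 largest falls, those of Khdrbs3, described above, and Hnrnpm still passed with array 3 alone. The Hnrnpm product favours exon skipping and is known for a role in the CD44 exon switch of mesenchymal breast cancer cells. Hnrnpm gave 7.87, 9.16 and 8.99 in M1P against 9.78, 10.31 and 10.15 in E1KD, so that no array overlapped. It fell 2.65-fold (-1.41 ± 0.28, limma adjusted p = 0.00661), and array 3 alone gave -1.09 and still passed.

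Hnrnpa1 gave 9.36, 9.95 and 10.05 in M1P, all below E1KD, and fell 1.5-fold (-0.58 ± 0.18, limma adjusted p = 0.0340; array 3 alone -0.32, not passing). Srsf1 gave 10.11, 11.79 and 11.81, also all below E1KD, and fell 2.09-fold (-1.06 ± 0.33, limma adjusted p = 0.0340; array 3 alone -0.49, not passing). Arrays 2 and 3 stood close together in these genes while array 1 lay lower. Hnrnpa2b1 at 10.02, 11.11 and 11.58 (-0.82 ± 0.29, adjusted p = 0.0533; array 3 alone -0.14) and Srsf3 at 9.50, 10.42 and 11.54 (-1.02 ± 0.36, adjusted p = 0.0510; array 3 alone 0.04) did not pass limma's test.

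By their brightest probe sets, Ptbp1 and Rbfox2 did not pass in M1P. Ptbp1 gave 11.45, 11.41 and 11.06 (0.09 ± 0.13 against E1KD, limma adjusted p = 0.589; array 3 alone -0.16) and Rbfox2 8.21, 8.24 and 8.13 (-0.04 ± 0.11, adjusted p = 0.795; array 3 alone -0.10). The other 8 falls, of Celf1, Hnrnpu, Hnrnpa0, Hnrnpll, Hnrnph3, Srsf5, Hnrnpab and Khdrbs1, lay between -1.32 and -0.43. Against the E1KD mean these 8 genes stood at -2.55 to -0.51 in M1P array 1, -0.77 to -0.21 in array 2 and -1.29 to -0.32 in array 3. Of the 8, Srsf5 (-0.32) and Khdrbs1 (-0.48) did not pass with array 3 alone. Among SR genes, a pair leaned the other way without passing: Srsf9 by 0.48 ± 0.18 (limma adjusted p = 0.0631; array 3 alone 0.12) and Srsf4 by 0.40 ± 0.16 (adjusted p = 0.0772; array 3 alone 0.09).

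**Figure D4:**
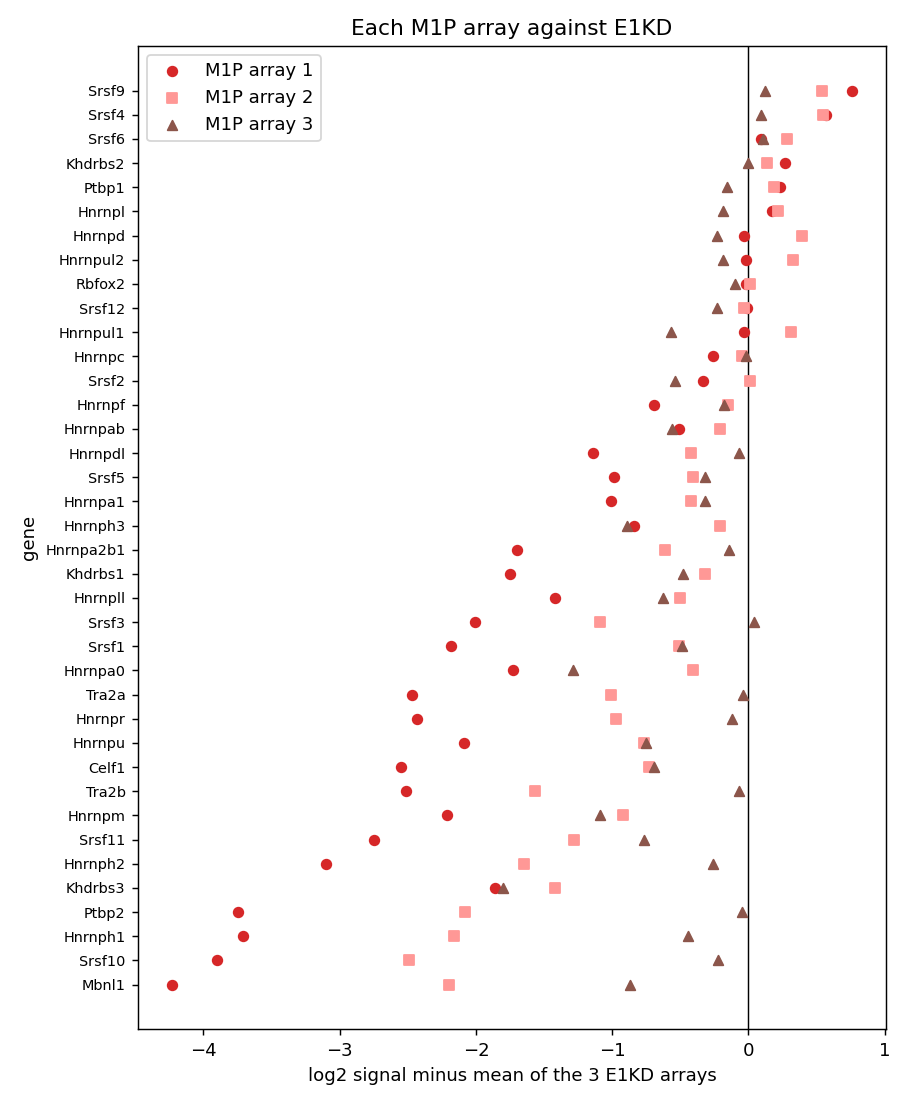
Log2 signal of each M1P array minus the mean of the 3 E1KD arrays, for each of the 38 genes, sorted by the mean of the 3 arrays. Array 1 (circles) reaches -4.23 for Mbnl1, while array 3 (triangles) stays within 1 log2 unit of 0 for all but 3 genes.

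Probe sets other than the brightest gave the same direction for most genes. The 38 genes had 124 probe sets, and in M1P against E1KD 52 of these fell and 1 rose, when tested over all 45101 probe sets, of which 7.87% fell and 11.9% rose. The 1 that rose was a dimmer Ptbp1 probe set (0.47 ± 0.145, limma adjusted p = 0.0408). Dimmer Rbfox2 probe sets differed by 0.23, 0.17 and 0.53 without passing. With array 3 alone 7 of the 124 fell and 0 rose, where 1.13% of all probe sets fell and 1.17% rose, and no probe set of Srsf1, Srsf6 or Hnrnpd passed. For Srsf1, 6 of 7 probe sets fell, by -2.63 to -0.62. Srsf6, an SR protein gene, was one where probe sets disagreed: the brightest gave 0.16 ± 0.14, while the other 3 fell, by -1.04, -0.80 and -0.84. Hnrnpd, which encodes the mRNA decay factor AUF1, disagreed too, with 0.04 ± 0.16 at the brightest and falls of -2.33 and -0.98 at the other probe sets. The dimmer Hnrnpd probe set that fell by -2.33 was also the one that rose in E1KD against NMuMG (2.55 ± 0.60, limma adjusted p = 0.0219). For Hnrnpab the brightest fell by -0.43, while a dimmer probe set differed by 0.57 ± 0.24 without passing and the remaining ones were lower. Probe sets of 1 gene can read different 3' ends, which these values do not resolve.

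Promoter sequence is shown for 4 members whose RNAs fell in M1P against E1KD with all 3 M1P arrays, Srsf10, Hnrnph2, Hnrnpm and Tra2b. With array 3 as the only M1P array their differences were -0.22, -0.26, -1.09 and -0.07 in that order. Of the 8 largest falls, these 4 have a single annotated start in RefSeq (build GRCm38.p6), and the 120 bases before it are given 5' to 3' on the gene's strand. Capitals mark any match, on either strand, to 5 motifs. These were CCAAT, the box bound by NF-Y; CCGGAAG, a core of ETS sites; CACGTG, the E-box; TGACGTCA, the cyclic AMP response element; and GGGCGG, the GC box bound by Sp1. The regions are chr4:135855951-135856070 on the plus strand for Srsf10, chrX:134601059-134601178 on the plus strand for Hnrnph2, chr17:33685459-33685578 on the minus strand for Hnrnpm, and chr16:22266006-22266125 on the minus strand for Tra2b.
Srsf10: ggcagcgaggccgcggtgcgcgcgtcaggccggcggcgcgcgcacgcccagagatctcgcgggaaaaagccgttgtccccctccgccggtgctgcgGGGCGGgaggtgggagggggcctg
Hnrnph2: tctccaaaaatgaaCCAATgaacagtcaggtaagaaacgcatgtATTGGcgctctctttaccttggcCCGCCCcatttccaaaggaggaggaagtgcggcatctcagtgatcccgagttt
Hnrnpm: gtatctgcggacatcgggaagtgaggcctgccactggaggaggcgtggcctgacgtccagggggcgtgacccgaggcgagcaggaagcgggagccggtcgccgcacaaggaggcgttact
Tra2b: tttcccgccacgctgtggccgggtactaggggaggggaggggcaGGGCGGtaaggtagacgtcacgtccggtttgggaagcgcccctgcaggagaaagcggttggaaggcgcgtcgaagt

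A GC box stood in the windows of Srsf10, Hnrnph2 and Tra2b, as GGGCGG or, on the other strand, CCGCCC. GC content differed between the windows and was 78.3% for Srsf10, 49.2% for Hnrnph2, 68.3% for Hnrnpm and 65.8% for Tra2b. Hnrnpm had no match. Over windows of 300 bases around every annotated start, 33 of the 38 members had 46 windows. GGGCGG was in 84.8% of these against 35.7% of all 32851 windows, CCAAT in 50% against 37.4%, CCGGAAG in 19.6% against 8.86%, CACGTG in 13.0% against 7.15% and TGACGTCA in 2.17% against 1.79%. Windows of the same gene can overlap, and a match is only a match of letters.

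Few members passed in the lung lines. In L1P against E1KD limma called 0 members higher, against 1.19% of all genes, and 1, Khdrbs3, fell (2.63%, against 1.29% of all genes). The median was -0.01, against -0.03 over all genes. In L2P against E1KD again 0 rose, against 2.14% of all genes, and Khdrbs3 alone fell (2.63%, against 1.64% of all genes). The median was -0.12, against -0.005 over all genes, and 30 of 38 were lower. Without L2P array 1 the member median was -0.06, against -0.05 over all genes. L2P array 1 had 4 members at least 1 log2 unit below E1KD, where 3.86% of all genes were that low, and every other lung array had 1. These comparisons and that of M1P share the E1KD arrays. At an unadjusted p under 0.05 there were 1 member in L1P and 3 in L2P, where 10% and 11.7% of all genes passed. Apart from Khdrbs3, differences from E1KD ran from -0.53 (Ptbp2) to 0.23 (Hnrnph1) in L1P and from -0.68 (Ptbp2) to 0.25 (Srsf6) in L2P. Ptbp2, the neuronal relative of Ptbp1, gave 7.89, 7.83 and 8.37 in L1P and 7.05, 8.37 and 8.22 in L2P, against 8.29, 8.95 and 8.44 in E1KD. The genes that fell most in M1P lay nearer to E1KD here: Hnrnph1 gave 11.33, 11.37 and 11.92 in L1P and 10.39, 11.65 and 11.82 in L2P. Mbnl1 gave 10.32, 10.16 and 11.00 in L1P and 9.49, 11.03 and 10.98 in L2P. L2P array 1 was the low one in each of these 3 genes. Hnrnpa1 differed from E1KD by -0.14 ± 0.18 in L1P and -0.34 ± 0.18 in L2P, Srsf1 by 0.16 ± 0.33 and -0.10 ± 0.33, and Rbfox2 by -0.08 ± 0.11 and -0.02 ± 0.11, none passing limma's test.

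L2P differed from L1P in 0 members by limma at the adjusted threshold, where 0.143% of all genes were called. It was also 0 at an unadjusted p under 0.05, where 2.28% of all genes passed, and 0 with array weights, where 1.01% were called. In all 29 of 38 means were lower in L2P, with a median of -0.12 and a range from -0.47 to 0.09. Over all genes the median was 0.02. Without L2P array 1 the member median was -0.06, against -0.01 over all genes.

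L1P was set against M1P to compare cells recovered from lung with cells recovered from the mammary tumour. Here 23 members rose (60.5%, against 13.6% of all genes) and 3 fell (7.89%, against 25.9%), with a median of 0.73 against -0.25 over all genes. In family terms 12 of 18 Hnrnp genes, 6 of 10 Srsf genes and 2 of 2 Tra2 genes were higher in L1P past the threshold. The 3 that fell were Khdrbs3, Srsf9 (-0.58 ± 0.18, limma adjusted p = 0.0262) and Ptbp1 (-0.36 ± 0.13, adjusted p = 0.0422). With array 3 alone the differences were -2.96 for Khdrbs3, which still passed, and -0.23 for Srsf9 and -0.11 for Ptbp1, which did not. Srsf9, an SR protein gene, gave 11.59, 11.37 and 10.95 in M1P and 10.79, 10.78 and 10.59 in L1P, without overlap.

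The largest rises were Srsf10 (2.42 ± 0.72), Hnrnph1 (2.34 ± 0.64), Mbnl1 (2.31 ± 0.68), Hnrnph2 (1.71 ± 0.55), Hnrnpm (1.54 ± 0.28), Srsf11 (1.5 ± 0.40), Tra2b (1.47 ± 0.48) and Tra2a (1.41 ± 0.43), with limma adjusted p between 0.00289 and 0.0308. With array 3 as the only M1P array these became 0.44, 0.67, 0.75, 0.30, 1.22, 0.67, 0.16 and 0.27 in the same order, and of the 8 only Hnrnpm still passed. With M1P arrays 1 and 2 left out, 8 members were called, 7 rising and 1 falling, against 3.17% and 4.12% of all genes. Leaving out L1P array 1, 2 or 3 gave 15, 16 and 8 calls, where 25.2%, 24.9% and 13.7% of all genes were called. Leaving out M1P array 1, 2 or 3 gave 12, 20 and 29 calls, where 17.9%, 37.5% and 54.2% were called. With only L1P and M1P in the model Khdrbs3 alone was called (1.58% of all genes were), and with array weights 3 rose and 1 fell (1.13% and 1.25% of all genes). The calls present in all 6 of these fits were those of Hnrnpa0, Hnrnpab, Hnrnph3, Hnrnpll, Hnrnpm, Hnrnpu, Khdrbs3 and Srsf5.

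Several genes low in M1P array 1 also varied between arrays of other lines. NMuMG array 2 and L2P array 1 were the lowest of their lines for Mbnl1 (8.90 and 9.49), Srsf10 (7.49 and 8.16), Hnrnph1 (9.72 and 10.39), Ptbp2 (7.05 and 7.05) and Tra2b (10.36 and 10.78). Across the 38 genes, the difference between M1P arrays 1 and 3 followed that between L2P array 1 and the other L2P arrays with Pearson r = 0.94 and Spearman rho = 0.90, and that between NMuMG array 2 and the other NMuMG arrays with r = 0.75 and rho = 0.61; over all genes r was 0.78 and 0.54. The arrays were picked after their values were seen, the points share the probe sets, and no test was made. Khdrbs3 did not share it: its difference between M1P arrays 1 and 3 was -0.06.

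**Figure D5:**
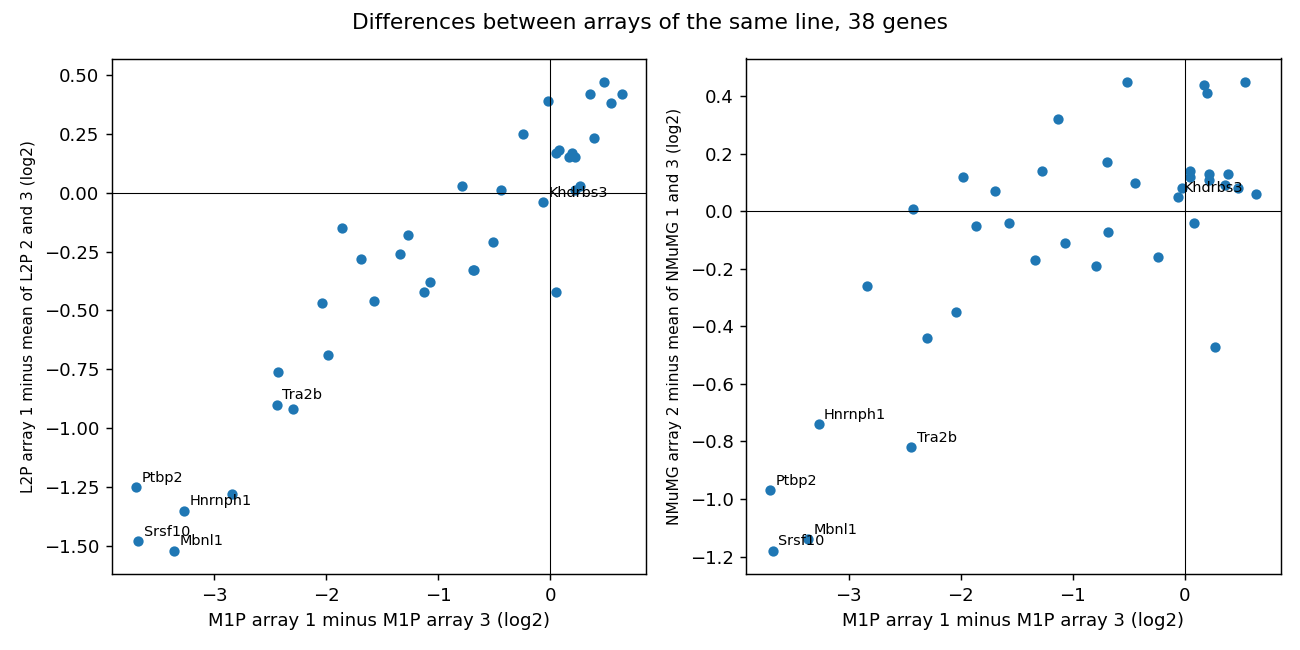
Differences between arrays of the same line for the 38 genes: M1P array 1 minus array 3 (x axis) against L2P array 1 (left) and NMuMG array 2 (right), each minus the mean of its line's other arrays, all in log2 units. Mbnl1, Srsf10, Hnrnph1, Ptbp2 and Tra2b sit at the lower left in both panels, and r over the 38 genes is 0.94 and 0.75.

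Measures of RNA and array quality moved as follows. The 3' to 5' difference of control probe sets, which grows with RNA degradation, was 0.64, 0.68 and 0.77 for Actb and 0.25, 0.27 and 0.45 for Gapdh in the M1P arrays. In the arrays of the other lines it was 0.68 to 0.98 for Actb and 0.19 to 0.41 for Gapdh. M1P array 1 was thus the lowest of all for Actb, and M1P array 3 the highest for Gapdh. The upper quartile of signal was 6.33 in M1P array 1 and 6.64 to 6.86 in the others. Summed markers of fibroblasts were 6.44 to 7.50 in M1P against 6.18 to 6.26 in E1KD, those of leukocytes, mostly set by Cd14 at 9.43 to 11.10 over all lines, 10.51 to 11.23 against 10.12 to 10.54, and those of endothelium 5.89 to 6.13 against 5.54 to 5.91 (log2 of the summed linear signals). In NMuMG, never passaged in mice, the sums were 6.35 to 6.53 for fibroblasts, 10.87 to 11.15 for leukocytes and 5.76 to 5.95 for endothelium. Of these marker genes, 1 of 7 fibroblast genes (Col1a2), 0 of 7 leukocyte genes and 1 of 5 endothelial genes (Kdr) rose against E1KD, while 6 of 7, 7 of 7 and 5 of 5 had a higher mean in M1P. In the same comparison 17.7% of all genes rose, and the median difference over all genes was 0.20. Cd68 gave 6.34, 5.26 and 4.51 and Lyz2 5.39, 3.68 and 4.52 in M1P, against means of 5.01 and 4.19 in E1KD. Lung epithelial markers summed to 7.02 to 7.51 in M1P, 6.82 to 6.87 in E1KD and 6.95 to 7 in NMuMG, with 1 of 5 (Ager) rising in M1P against E1KD. Mammary epithelial markers summed to 15.24 to 15.57 in M1P, 15.10 to 15.27 in E1KD and 15.5 to 15.56 in NMuMG, with 1 of 8 (Krt19) rising in M1P against E1KD. The epithelial keratin gene Krt8 stood between 13.63 and 14.22 in all 15 arrays. Krt7, another epithelial keratin gene, did not stay level. It gave 10.74, 10.43 and 9.63 in NMuMG, 5.23, 4.68 and 4.52 in E1KD, and 3.92 to 5.27 in M1P, L1P and L2P. Ptprc, which defines leukocytes, stayed between 2.24 and 2.72 and the endothelial Pecam1 between 2.67 and 3.33, unlike other markers of their lists given above. The part of these in the member falls was not tested.

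Other genes of splicing and of the steps around it were counted in the same way. In M1P against E1KD, where 9.86% of all genes fell and 17.7% rose, 9 of 17 speckle and paraspeckle genes fell and 0 rose. Their median was -0.89, and Pnisr (-1.88 ± 0.58) and Son (-1.79 ± 0.36), a scaffold of nuclear speckles, fell the most. Of 24 other splicing regulators 12 fell and 1 rose, with the stress-granule protein gene Tia1 at -2.70 ± 0.54 and the STAR-family gene Qk at -2.67 ± 0.62, and the hnRNP-like gene Raly up by 0.72 ± 0.18. Of 11 genes for SR protein kinases, phosphatases and import, 2 fell, the SR protein kinase gene Clk4 (-1.62 ± 0.47) and the SR protein importer gene Tnpo3 (-1.42 ± 0.47), and 1 rose, the phosphatase gene Ppp1ca (0.48 ± 0.12).

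Of 29 core spliceosome genes 4 fell, where 9.86% of all genes did, Sf3b1 (-2.12 ± 0.66) the most and Snrpd3 (-0.85 ± 0.23) next, and Snrpa1 alone rose (0.63 ± 0.16), with a median of -0.01. Of 10 genes of nonsense-mediated decay and the exon junction, 3 fell, with Smg1 (-2.56 ± 0.66) and Upf2 (-2.52 ± 0.86) the largest, and 0 rose. Of 8 arginine methyltransferase genes, which modify hnRNP proteins, Prmt1 rose (0.49 ± 0.17) and 0 fell. Without M1P arrays 1 and 2, the median was -0.47 for speckle genes, -0.40 for other regulators and -0.14 for kinase, phosphatase and import genes. It was -0.17 for core genes, -0.23 for decay genes and 0.08 for methyltransferase genes, against 0.07 over all genes. Of the genes named in this comparison, Son still passed with array 3 alone (-1.29), while Pnisr (-0.47), Tia1 (-1.69), Qk (-1.51), Sf3b1 (-0.56), Smg1 (-1.25) and Upf2 (-0.24) did not. Nor did Clk4 (-0.39), Tnpo3 (-0.38), Snrpd3 (-0.31), Raly (0.38), Ppp1ca (0.36), Snrpa1 (0.46) and Prmt1 (0.5).

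In E1KD against NMuMG, the speckle scaffold gene Srrm2 rose (1.21 ± 0.28), as did the regulators Tial1 (0.66 ± 0.14) and Nova1 (0.52 ± 0.15), while Raly (-0.84 ± 0.18), the decay factor gene Smg5 (-0.61 ± 0.17) and Wdr77 (-0.54 ± 0.15), which encodes a partner of the methyltransferase Prmt5, fell. In both lung lines against E1KD, Mbnl3, an Mbnl1 relative, fell (L1P -2.80 ± 0.31, L2P -2.87 ± 0.31), and so did Nova1 (L1P -1.15 ± 0.15, L2P -1.30 ± 0.15). Of the poly(C)-binding genes Pcbp1 fell further in L2P against E1KD (-1.10 ± 0.22).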

How the data were processed

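RNA of 5 lines, 3 arrays each, was hybridised to Affymetrix mouse arrays after amplification from 100 ng, per the labels' protocols. The authors deposited log2 signals for 45101 probe sets, and the submitters' processing notes name the Affymetrix Expression Console, MAS5 and RMA; neither versions nor order appear in the sources used here. The deposited log2 values were used unchanged. Symbols came from the platform annotation, updated by Entrez identifier; 34945 probe sets had 1 symbol, and the brightest per gene gave 18193 genes. Srsf7, Srsf8 and Hnrnpa3 had no probe set of their own and are not analysed here. Arrays have no read depth; 3 per line limits precision.

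The 15 arrays entered 1 linear model with a term per line (lmFit and eBayes of limma 3.58.1, under R 4.3.3), with two-sided tests for 6 comparisons and an F test over the lines. P-values were adjusted over all 18193 genes. The test was tried on simulated data. Nothing in the labels says that a line's arrays are separate cultures; the p-values measure only spread between arrays, which may be technical. Alternatives were a replicate block, only the lines compared, array weights, quantile normalization, another probe set per gene, a filter at a mean log2 signal of 5, another eBayes setting and left-out arrays; leaving out M1P arrays 1 and 2 in the other splicing lists and over probe sets was added after seeing the data.

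Genes were described array by array if they passed and were among the 8 largest per direction and comparison, or were Hnrnpa1, Hnrnpa2b1, Srsf1, Srsf3, Ptbp1, Tra2b, Rbfox2, Mbnl1, Khdrbs1 or the silenced Pcbp1; other lists gave up to 2 per direction. Others named were chosen after their values were seen. Members and lists were chosen with earlier results of these data known. Promoters are RefSeq's, matched by symbol for 33 of 38 members.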

Additional observations from a re-analysis of the deposited data

How the results depend on the processing

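Counts of members called, as printed in the report, moved by over 1.5 times under some alternatives. For E1KD with NMuMG (2 as reported) they were 10 with only the lines compared in the model, 14 with array weights, 4 with the probe set of largest variance, 1 with the filter on mean signal, 1 with the trend and robust setting, and 1 to 1 on leaving out single arrays. For M1P with E1KD (18) they were 1 with only the lines compared, 2 with array weights, 9 without M1P arrays 1 and 2, and 4 to 26 on leaving out single arrays; with the filter, 22 of 35 fell where 19.9% of genes did. For L1P with M1P (26) they were 1, 4 and 8 under those same settings, and 8 to 29 on leaving out single arrays. With only the lines compared, the spread comes from those 2 lines and not from all 5. For L1P and L2P with E1KD (1 each) array weights gave 4 and 7, and the filter 0, since it removes Khdrbs3. The F test (12) gave 21 with array weights and 9 to 27 on leaving out single arrays. L2P with L1P stayed at 0 under every alternative run. Where no reason is given, the cause was not tested. The array weights did not reach their convergence tolerance.

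With the replicate number as a block, E1KD against NMuMG gave 3 (12% of all genes called), M1P against E1KD 25, of which 2 rose (38%), L1P against M1P 28 (47.9%) and the F test 22 (41.9%); either lung line against E1KD gave 1, and L2P against L1P 0. Same-numbered arrays correlated in their deviations at -0.496 to 0.618. Arrays numbered 1 correlated at 0.374 to 0.58 in the comparisons between silenced lines, and at -0.057 between E1KD and NMuMG. Those numbered 2 and 3 gave both signs, at -0.496 to 0.525 and -0.361 to 0.618. Whether the numbers pair the arrays is not stated in the labels and was not tested. For single members, 917 of 1215 alternatives kept direction and side of the threshold, 229 lost the call and 17 gained it. In 51 neither value passed and the sign changed, among them Srsf3 in M1P against E1KD, at -1.02 as reported and 0.04 without M1P arrays 1 and 2. In 1 other the call was lost and the sign changed. This was Srsf2 in L1P against M1P, at 0.43 as reported and -0.316, not passing, with the probe set of largest variance. Medians of the other splicing lists and counts of member probe sets without M1P arrays 1 and 2 are in the report.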
